A study of Mus musculus with 6 samples.

Results

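The crypt base stem cell markers are 10 mouse genes that were chosen by symbol: Lgr5, Ascl2, Smoc2, Olfm4, Sox9, Prom1, Lrig1, Rgmb, Tnfrsf19 and Bmi1. All 10 were found among the 25067 rows of the deposited expression values, and 9 of them were among the 13210 rows abundant enough to be tested. RNA from colonic organoids was sequenced in 6 libraries, 3 from cultures given vehicle (ethanol) and 3 from cultures given 4-hydroxytamoxifen (4-OHT, written 4-OH-Tamoxifen in the labels). All 6 came from C57BL/6 mice 8 weeks old of the genotype Prkci f/f Prkcz f/f with Villin-CreERT2, a Cre recombinase that tamoxifen activates and that the Villin promoter restricts to intestinal epithelium. The vehicle libraries, described as wild type in the labels, thus carry the same floxed alleles and the same Cre as the 4-OHT libraries, described as double knockout (DKO). The agent was added when the organoids were passaged, 3 days before RNA was taken, in a medium that held WNT3A, EGF, Noggin and R-spondin 1 (spelled R-spndin 1 in the labels). No library from cells without Cre or without the floxed alleles was analysed here, so loss of the atypical protein kinases C (aPKC), Cre activity and 4-OHT itself cannot be told apart. The labels do not say whether the 3 libraries of a group came from separate mice or cultures, so the p-values measure the spread between these libraries, which may be technical.

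The floor of a colonic crypt holds slender dividing stem cells, the crypt base columnar cells, whose progeny move up the crypt as they divide, differentiate and are shed. Wnt and R-spondin signals keep these cells in the stem state, Lgr5 is both a receptor for R-spondin and their best known marker, and Ascl2 is the transcription factor that maintains their programme. Other markers in the set label wider or different populations: Sox9 and Prom1 extend through the progenitor zone, and Lrig1 and Bmi1 have been used to mark stem cells that are less tied to Wnt.

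Of the 9 tested markers, 5 fell in 4-OHT organoids (Lgr5, Smoc2, Ascl2, Lrig1 and Rgmb), 2 rose (Sox9 and Prom1) and 2 did not pass the threshold (Tnfrsf19 and Bmi1). Normalized counts, with 1 added, were put on the log2 scale and fitted with limma-trend over all 13210 rows, with a Benjamini-Hochberg adjusted p-value under 0.05 as the threshold. Over all tested rows 43.6% passed, 21% as lower and 22.7% as higher. The 5 lower markers of 9 thus stand beside a background of about 1 row in 5. The 2 higher markers of 9 are near the share called higher over all rows. In bulk samples such as these, fewer cells of a type and less RNA per cell cannot be told apart. The median log2 fold change was -0.38 over the 9 markers and -0.0054 over all tested rows. In 4-OHT replicate 1, taken alone against the vehicle mean, the log2 differences were -0.96 for Lgr5, -0.42 for Smoc2, -0.57 for Ascl2, -0.42 for Lrig1, -0.52 for Rgmb, 0.35 for Sox9 and 0.10 for Prom1. These values are given because 4-OHT replicates 2 and 3 hold reads of defensin, ileal, smooth muscle and immunoglobulin genes, such as Defa24, Fabp6, Myh11 and Igha, that are near 0 in the other libraries, as described with Olfm4. Wherever a test with 4-OHT replicate 1 alone is named, its spread comes from the 3 vehicle libraries and the lone library is assumed to vary like them, so a call lost there does not by itself show a smaller change.

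The targeted genes were checked first. In normalized counts, Prkcz averaged 912 ± 37.9 in vehicle and 281 ± 13.6 in 4-OHT libraries (SD, n = 3 each), while Prkci averaged 3520 ± 86.9 and 3021 ± 132, both falls past the threshold (limma adjusted p = 3.17e-12 and 8.13e-04). These are whole-gene values, which do not separate the floxed exons from the rest. Libraries held between 15804709 and 26957612 reads. Vehicle and 4-OHT libraries separated on principal component 1 (58.2% of variance), while on principal component 2 (14.1%) 4-OHT replicate 1 lay away from its 2 counterparts. The markers of colonic epithelium (Epcam, Cdh1, Krt8, Vil1, Cdx1 and Cdx2) were all detected, at a summed 11312 to 11552 RPM (reads per 1000000 reads of the library) in vehicle and 14288 to 15181 in 4-OHT libraries.

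For 7 of the 10 markers the RefSeq table of the mouse build GRCm38.p6 held a promoter, and Lgr5, Smoc2 and Sox9 had no entry. The submitters' processing notes name GRCm39, and the positions below belong to GRCm38.p6 only. The 250 bases before the annotated start are printed for Ascl2 and Lrig1, which fell, and for Bmi1, which did not pass the threshold. These are the tested markers with 1 listed promoter. Olfm4 also has 1, but was not abundant enough to be tested and is not printed. Capitals mark a CCAAT box (CCAAT or, on the other strand, ATTGG). They lie at chr7:142969265-142969514 on the minus strand for Ascl2, chr6:94700146-94700395 on the minus strand for Lrig1 and chr2:18676768-18677017 on the plus strand for Bmi1.
Ascl2: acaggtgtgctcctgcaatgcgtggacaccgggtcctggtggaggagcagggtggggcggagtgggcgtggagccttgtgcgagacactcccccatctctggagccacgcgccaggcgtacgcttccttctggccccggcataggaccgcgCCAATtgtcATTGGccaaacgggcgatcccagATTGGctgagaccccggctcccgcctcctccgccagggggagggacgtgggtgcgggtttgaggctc
Lrig1: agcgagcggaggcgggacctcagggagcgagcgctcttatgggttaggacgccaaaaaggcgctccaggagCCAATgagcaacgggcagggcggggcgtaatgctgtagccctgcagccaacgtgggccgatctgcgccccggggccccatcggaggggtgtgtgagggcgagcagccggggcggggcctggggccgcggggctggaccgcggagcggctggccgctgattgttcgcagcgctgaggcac
Bmi1: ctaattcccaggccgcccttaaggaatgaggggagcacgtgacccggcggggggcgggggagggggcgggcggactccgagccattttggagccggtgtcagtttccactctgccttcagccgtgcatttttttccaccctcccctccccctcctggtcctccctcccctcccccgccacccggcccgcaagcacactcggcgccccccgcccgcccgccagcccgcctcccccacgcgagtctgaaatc
The window of Ascl2 held 3 CCAAT boxes, that of Lrig1 held 1 and that of Bmi1 held 0, while 33.9% of the 32851 promoters in the table held at least 1. The TCF/LEF motifs CTTTGA and CTTTGT, searched on both strands, were in none of these 3 windows and are present in 13.8% and 16.5% of all promoters. The E-box CAGCTG was also in none of the 3 and is present in 13% of all promoters. Over the 11 promoters listed for the 7 markers, a CCAAT box was found for 5 markers, a TCF/LEF motif for 2 (Rgmb and Tnfrsf19) and the E-box for 1 (Tnfrsf19). These counts are per marker, with up to 3 promoters each. The shares above are per promoter and per single motif, so the 2 cannot be compared directly. These are matches of letters in 250 bases and describe no binding. GC content was 67.6% for Ascl2, 71.6% for Lrig1 and 70.4% for Bmi1, against a median of 52.4% over all promoters. The windows of the other markers were lower, at 54% for Olfm4, 59.2% and 50.8% for Prom1 and 50% and 59.2% for Tnfrsf19. Those of Rgmb were at 50%, 66% and 63.6%.

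Among the cell surface receptors, Lgr5 had the largest change of the 9 tested markers. Its normalized count was 2645, 2608 and 2725 in vehicle replicates 1, 2 and 3 and 1370, 1219 and 1245 in 4-OHT replicates 1, 2 and 3. The 4-OHT libraries lay close together and all far below the vehicle libraries, at 48.1% of the vehicle mean. The log2 fold change was -1.06 (SE 0.05, 95% interval -1.17 to -0.94, limma adjusted p = 1.84e-11), and of the 13210 tested rows 185 (1.4%) had a lower one. Lgr5 also had the smallest relative spread of the 9 in vehicle libraries, with a coefficient of variation of 2.26%.

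Lrig1, a transmembrane protein that restrains receptors of the ErbB family, fell less. It measured 4555, 4325 and 4520 in vehicle and 3337, 3050 and 2988 in 4-OHT replicates 1, 2 and 3. The groups did not overlap, and the 4-OHT mean was 70% of the vehicle mean (log2 fold change -0.52, SE 0.05, limma adjusted p = 6.60e-08). A total of 144 of the 5585 annotated exon bases of Lrig1 overlap exons of Slc25a26 on the other strand. Whether the authors counted reads by strand is not given in the sources used here, and Slc25a26 itself changed by -0.08 on the log2 scale (limma adjusted p = 0.68).

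Rgmb, a co-receptor for bone morphogenetic proteins (BMPs), measured 444, 427 and 516 in vehicle and 321, 369 and 370 in 4-OHT replicates 1, 2 and 3. The highest 4-OHT library was below the lowest vehicle library (log2 fold change -0.38, SE 0.09, limma adjusted p = 0.0021). It was the smallest of the 5 falls, and its lowest 4-OHT value was in replicate 1, unlike Lgr5, Smoc2 and Lrig1, whose highest 4-OHT value was in that replicate.

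Tnfrsf19 (also called Troy), a receptor of the TNF receptor family and a Wnt target, was expressed at a low level. It measured 103, 92.2 and 63 in vehicle and 105, 70.5 and 87.7 in 4-OHT replicates 1, 2 and 3. The groups overlapped over most of their range, with 52 to 130 reads per library. At 0.04 (SE 0.20, limma adjusted p = 0.88), the log2 fold change has a 95% interval of -0.37 to 0.46, which holds a rise of the size seen for Sox9 and ends close to the fall seen for Rgmb.

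Prom1, a membrane glycoprotein of cell protrusions, had the highest counts of the markers. It measured 9818, 10337 and 9489 in vehicle and 10578, 10954 and 10906 in 4-OHT replicates 1, 2 and 3. In these normalized counts each 4-OHT library was above each vehicle library, but the 4-OHT mean was only 109% of the vehicle mean (log2 fold change 0.13, SE 0.04, limma adjusted p = 0.020). As RPM per kilobase of exon the groups overlapped, at 72.0, 75.3 and 69.1 in vehicle and 74.1, 75.2 and 75.9 in 4-OHT replicates 1, 2 and 3. The call was lost with quantile normalization (0.04, limma adjusted p = 0.46) and when vehicle replicate 1, vehicle replicate 3 or 4-OHT replicate 3 was left out (0.13, 0.10 and 0.12, limma adjusted p = 0.063, 0.076 and 0.075). A total of 424 of its 7175 exon bases overlap Gm16401 on the other strand.

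**Figure D1:**
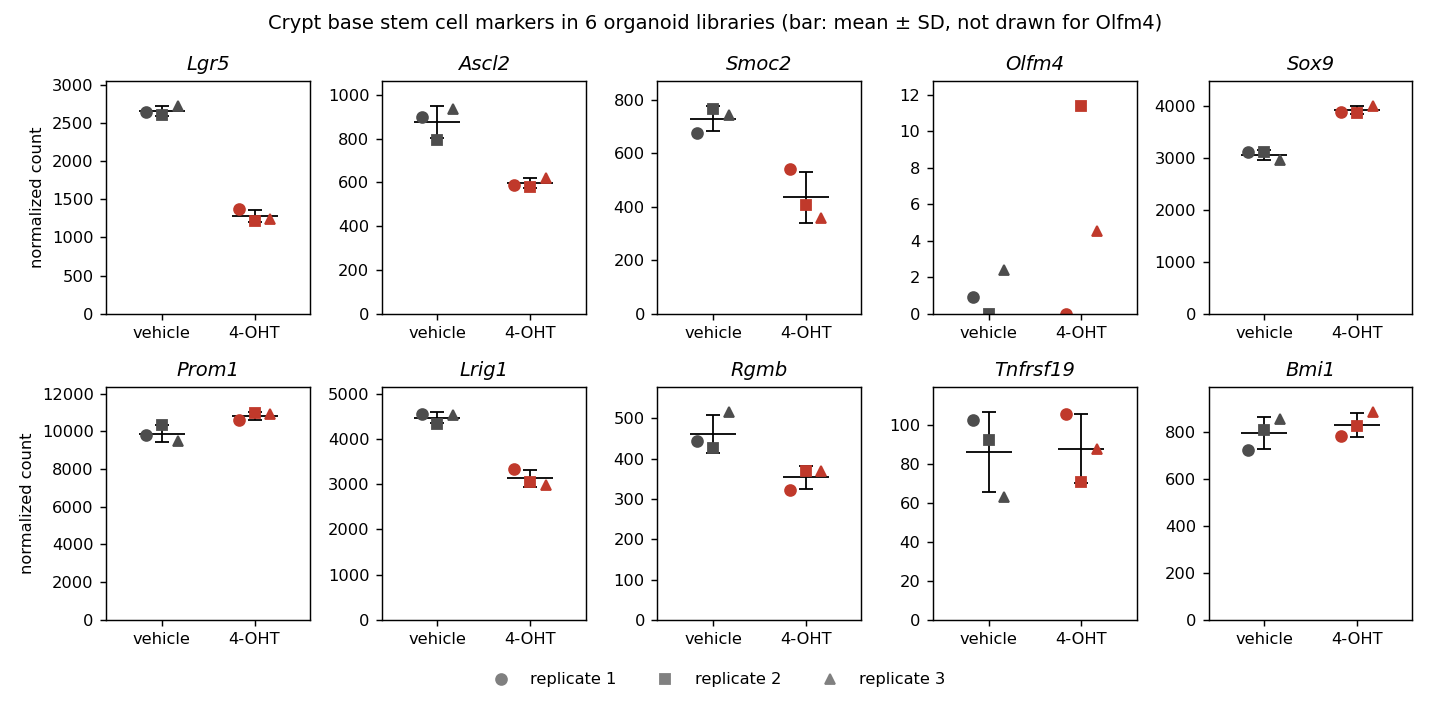
Normalized counts (vertical axes, from 0, one scale per gene) of the 10 markers in vehicle (grey) and 4-OHT (red) organoids, with one point per library and a symbol for each replicate. Bars give the mean ± SD of 3 libraries, except for Olfm4. Lgr5 drops from a mean of 2659 to 1278 with no overlap, Sox9 rises from 3056 to 3917 with no overlap, and the groups of Tnfrsf19 and Bmi1 overlap.

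Among the transcription and chromatin factors, Ascl2 fell and Sox9 rose. Ascl2, a basic helix-loop-helix factor, measured 900, 794 and 933 in vehicle and 589, 577 and 622 in 4-OHT replicates 1, 2 and 3. The groups lay well apart, with the 4-OHT mean at 68% of the vehicle mean (log2 fold change -0.55, SE 0.07, limma adjusted p = 3.66e-06), and 1108 of the tested rows had a lower log2 fold change.

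Sox9, an HMG box factor that is also high in some secretory cells of the crypt, measured 3106, 3111 and 2950 in vehicle and 3889, 3867 and 3996 in 4-OHT replicates 1, 2 and 3. Every 4-OHT library was above every vehicle library, and the 3 values of each group were within a few percent of one another (log2 fold change 0.36, SE 0.05, limma adjusted p = 2.27e-06). The 4-OHT mean was 128% of the vehicle mean. Markers of enteroendocrine cells moved the same way: of 5 listed (Chga, Chgb, Neurod1, Gcg and Pyy), 4 were higher and 0 lower, beside 22.7% higher and 21% lower over all tested rows. They summed to 30.2 to 43.4 RPM in vehicle and 47 to 54.8 in 4-OHT libraries. In 4-OHT replicate 1, the log2 differences from the vehicle mean were 0.35 for Chga, 0.44 for Chgb, 0.55 for Gcg and 0.96 for Pyy, of which Pyy passed in the test of that library alone. Their part in the rise of Sox9 was not tested.

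Bmi1, a subunit of Polycomb repressive complex 1 (PRC1), measured 722, 809 and 857 in vehicle and 783, 826 and 886 in 4-OHT replicates 1, 2 and 3. The groups overlapped, and at 0.06 (SE 0.07, limma adjusted p = 0.50) the log2 fold change has a 95% interval of -0.09 to 0.22. A fall of the size seen for Lgr5, Smoc2, Ascl2, Lrig1 or Rgmb lies outside that interval.

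Of the secreted markers, Smoc2, a calcium-binding protein of the extracellular matrix, had the second largest fall and the widest spread of the falls. It measured 677, 768 and 746 in vehicle and 543, 405 and 357 in 4-OHT replicates 1, 2 and 3. The groups did not overlap, but 4-OHT replicate 1 lay nearer to the vehicle libraries than the other two did. The log2 fold change was -0.77 (SE 0.11, limma adjusted p = 1.07e-05), with -0.94 when 4-OHT replicate 1 was left out and -0.42 when only that 4-OHT library was kept (limma adjusted p = 0.0074). Smoc2 is also known from fibroblasts. Of the 6 fibroblast markers listed (Col1a1, Col1a2, Col3a1, Pdgfra, Dcn and Lum), Col1a2, Col3a1, Dcn and Lum had 0 reads in each vehicle library, and the list summed to 0.297 to 1.08 RPM in vehicle and 0.415, 0.868 and 9.71 in 4-OHT replicates 1, 2 and 3. The part of fibroblast reads in the Smoc2 values was not tested.

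**Figure D2:**
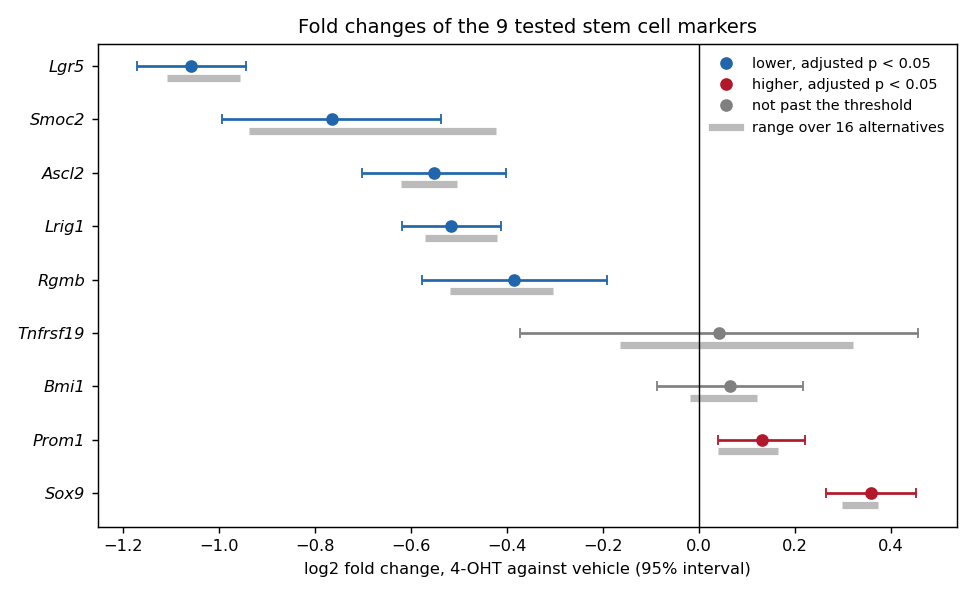
Log2 fold change of the 9 tested markers in 4-OHT against vehicle organoids (horizontal axis), with the 95% interval of the fit as a whisker and the range over 16 alternative analyses as a grey bar. The intervals of Lgr5, Smoc2, Ascl2, Lrig1 and Rgmb lie below 0, those of Sox9 and Prom1 above 0, and those of Tnfrsf19 and Bmi1 span 0.

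The 5 falls had log2 fold changes from -1.06 to -0.38. The interval of Lgr5 (-1.17 to -0.94) lay below those of Ascl2 (-0.70 to -0.40), Lrig1 (-0.62 to -0.41) and Rgmb (-0.58 to -0.19) and overlapped that of Smoc2 (-0.99 to -0.54). The differences between markers were not tested. In normalized counts the groups of libraries did not overlap for 7 of the 9 markers, 5 as lower and 2 as higher. This stands beside 52.1% of all tested rows, 25.3% as lower and 26.8% as higher. The coefficient of variation among the 9 markers was between 2.26% and 23.9% in vehicle libraries (median 6.48%) and between 1.75% and 22.2% in 4-OHT libraries (median 6.19%), near the medians over all tested rows of 5.98% and 6.67%.

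Levels of different genes were compared per length, as RPM per kilobase of annotated exon (RPKM), with exon lengths from GENCODE vM21, which may not be the annotation the authors counted on. In vehicle organoids the order of these levels was Prom1 (72.1 ± 3.11), Lrig1 (41.9 ± 1.25), Sox9 (38.7 ± 1.23), Ascl2 (28.3 ± 2.37), Lgr5 (13.6 ± 0.296), Bmi1 (10.5 ± 0.869), Smoc2 (5.50 ± 0.340), Rgmb (3.16 ± 0.317), Tnfrsf19 (0.950 ± 0.230) and Olfm4 (0.020 ± 0.022), each as mean RPKM ± SD over 3 libraries. The ranges of neighbours in this order did not overlap between their libraries, and the difference between neighbours was not tested. The order changed at 2 places in 4-OHT organoids: Sox9 (47.2 ± 1.08) passed Lrig1 (27.9 ± 1.86), and Bmi1 (10.4 ± 0.631) passed Lgr5 (6.20 ± 0.447). The RPKM of Bmi1 was nearly the same in both groups, so its change of rank came with the lower level of Lgr5.

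**Figure D3:**
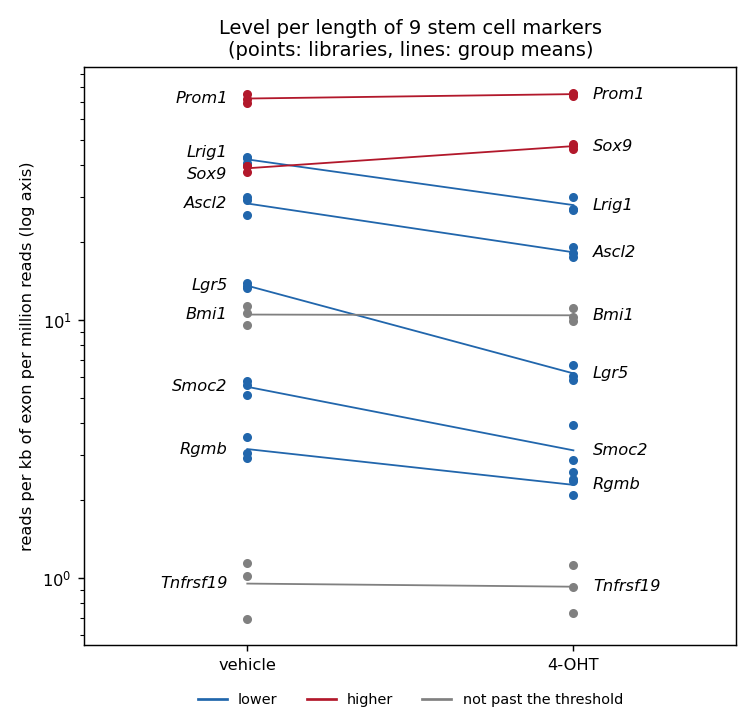
Level per length of 9 markers (RPKM, log axis) in vehicle and 4-OHT organoids, with one point per library, a line between the group means and colours for the direction of the call. The line of Lgr5 crosses that of Bmi1, from 13.6 to 6.20 RPKM, and the line of Sox9 crosses that of Lrig1. Olfm4 is left out because of its low counts.

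Olfm4 was at the limit of detection. It had 1, 0 and 2 reads in vehicle replicates 1, 2 and 3 and 0, 11 and 4 reads in 4-OHT replicates 1, 2 and 3. Olfm4 encodes a secreted glycoprotein that marks stem cells of the mouse small intestine and is scarce in mouse colon. The vehicle libraries and 4-OHT replicate 1 were all below the floor of 3 reads (0.111 to 0.190 RPM), while 4-OHT replicates 2 and 3 were above it. The gene was below the mean normalized count of 10 set for testing, and no fold is given. With no filter on low values it did not pass (limma adjusted p = 0.32). Of the 2962 annotated exon bases of Olfm4, 153 overlap exons of Gm6999 on the same strand.

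The 2 libraries with the most Olfm4 reads also had the highest sums of Paneth and ileal, smooth muscle and immune genes. Fabp6, an ileal bile acid binding protein, had 2, 3 and 2 reads in vehicle replicates and 4, 120 and 34 reads in 4-OHT replicates 1, 2 and 3. Defa24, a Paneth cell defensin, had 1, 6 and 3 reads and then 4, 145 and 176 reads in the same order. The list of 8 Paneth and ileal genes (Lyz1, Defa17, Defa21, Defa24, Mptx2, Fabp6, Itln1 and Ang4) summed to 35.8 to 49.9 RPM in vehicle, against 54.8, 89.1 and 94.0 in 4-OHT replicates 1, 2 and 3. Of these genes Mptx2 was at 0 reads in each vehicle library, while Ang4, Lyz1 and Itln1 made up nearly all of the vehicle sum. Ang4 had 512, 860 and 412 reads in vehicle and 828, 959 and 972 in 4-OHT replicates 1, 2 and 3. Its rise (0.90 on the log2 scale, limma adjusted p = 2.14e-07) is thus part of the higher sums, with 828 of the 1055 summed reads in 4-OHT replicate 1. The 4 smooth muscle genes (Acta2, Myh11, Des and Cnn1) summed to 0.049 to 0.253 RPM in vehicle and to 0.259, 2.60 and 5.34 in 4-OHT replicates 1, 2 and 3, with Des at 0 in each vehicle library. The 6 immune genes (Ptprc, Cd3e, Cd79a, Igkc, Igha and Jchain) summed to 0 to 0.316 and to 0.156, 10.6 and 3.81, with Igkc, Igha, Jchain and Cd3e at 0 in each vehicle library. The 3 endothelial genes (Pecam1, Cdh5 and Kdr) summed to at most 0.454 in any library. The part of such reads in Olfm4 was not tested.

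**Figure D4:**
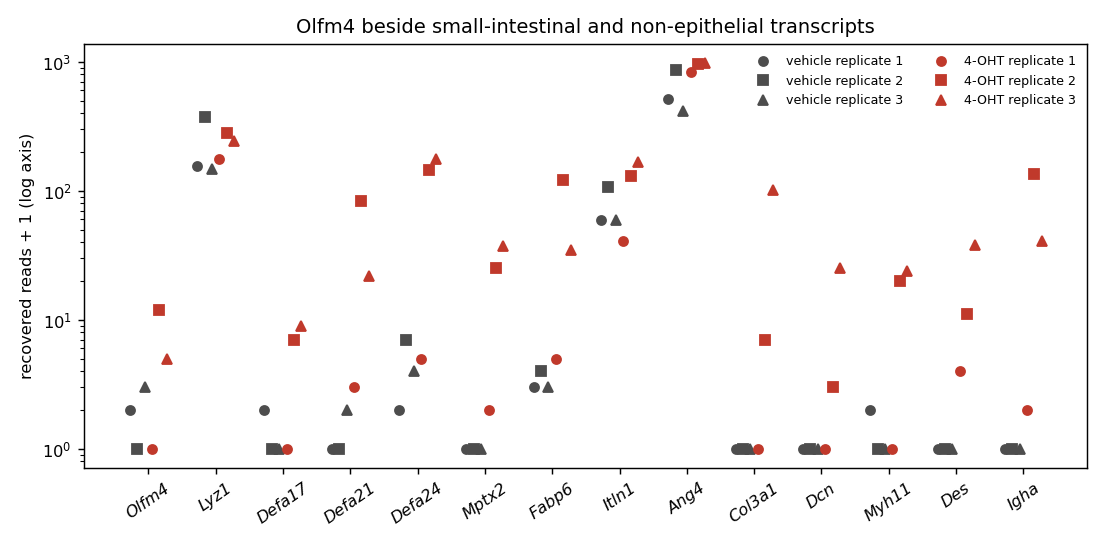
Recovered reads plus 1 (log axis) in each of the 6 libraries for Olfm4, the 8 Paneth and ileal genes and 5 genes of fibroblasts, smooth muscle and plasma cells, a choice made with their values known. Olfm4, the defensins, Mptx2, Fabp6, Myh11, Des and Igha are highest in 4-OHT replicates 2 and 3 (red squares and triangles), whereas Lyz1 and Ang4 are above 100 reads in every library.

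Other genes of the crypt base programme moved in both directions. Of 14 listed (Slc12a2, Cdca7, Cdk6, Gkn3, Aqp4, Igfbp4, Mex3a, Msi1, Cd44, Ephb2, Ephb3, Myb, Vdr and Scn2b), 12 were tested, of which 6 fell, 3 rose and 3 did not pass, with a median log2 fold change of -0.17. Among all tested rows 21% were lower and 22.7% higher, so the 3 rises of 12 are near the background share. The 3 falls with the lowest p-values were those of Cdca7, a Myc-responsive nuclear protein (-0.66), Aqp4, a water channel (-0.90), and Myb, a transcription factor of progenitors (-0.61). The rises were those of Cd44, a hyaluronan receptor and Wnt target (0.59), Ephb3, an Eph receptor that helps position crypt cells (0.21), and Mex3a, an RNA-binding protein (0.26), the last of which did not pass without 4-OHT replicate 1. With only 4-OHT replicate 1 kept, 3 of the 14 were lower, and they were Cdca7, Aqp4 and Myb.

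Of 5 further genes used to mark stem or progenitor cells, 3 rose, 1 fell and 1 did not pass, beside 22.7% higher and 21% lower over all tested rows. Clu, a marker of cells that appear after injury to the crypt, averaged 23141 ± 1125 in vehicle and 53252 ± 1416 in 4-OHT libraries (SD, n = 3 each). This was a rise of 1.20 on the log2 scale (limma SE 0.05, adjusted p = 3.87e-13). The keratins Krt19 (0.47) and Krt15 (0.77) rose as well. Hopx, which marks slowly cycling cells, fell by 0.22 on the log2 scale, a call that was lost without vehicle replicate 1, vehicle replicate 3 or 4-OHT replicate 3 and with 4-OHT replicate 1 alone (-0.15), and Tert (-0.18, limma adjusted p = 0.24) did not pass.

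The R-spondin and Wnt pathway list held 17 genes (Lgr4, Lgr6, Rnf43, Znrf3, Lrp5, Lrp6, Fzd5, Fzd7, Axin2, Nkd1, Sp5, Lef1, Tcf7, Tcf7l1, Tcf7l2, Ctnnb1 and Apc). Of these 15 were tested, 5 fell, 2 rose and 8 did not pass, with a median log2 fold change of -0.09, beside 43.6% called over all tested rows. Lgr4, among the falls, and Lgr6, among the rises, are counted again with the paralogs below. Znrf3, a ubiquitin ligase that removes Wnt receptors and that R-spondin inhibits through Lgr receptors, fell by 0.53 on the log2 scale, and Axin2, a Wnt target that limits the pathway, fell by 0.23. Apc, a scaffold of the complex that degrades beta-catenin, fell by 0.26. Ctnnb1, which encodes beta-catenin, rose by 0.56, and the other rise was that of Lgr6 (0.90), which was scarce. With quantile normalization 8 genes of this list were lower instead of 5.

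Among the closest relatives of the markers, 17 paralogs were listed, 15 were in the values and 9 were tested. Of these 1 fell, 2 rose and 6 did not pass, with a median log2 fold change of -0.03, beside 43.6% called over all tested rows. Lgr4, the R-spondin receptor found throughout the crypt, measured 2600, 2645 and 2453 in vehicle and 2056, 2125 and 2337 in 4-OHT replicates 1, 2 and 3. All 4-OHT libraries were lower, but at -0.24 on the log2 scale (SE 0.05, limma adjusted p = 0.0012) the change was nearer to 0 than that of Lgr5, a difference that was not tested. Lgr6 was scarce, with 19.4 ± 6.30 in vehicle and 36.1 ± 6.38 in 4-OHT libraries (SD, n = 3 each). Its rise of 0.90 on the log2 scale (SE 0.31, limma adjusted p = 0.024) did not pass without vehicle replicate 3, 4-OHT replicate 1 or 4-OHT replicate 2, nor with no filter or DESeq2. Eda2r, a relative of Tnfrsf19 and a known p53 target, rose by 0.86 on the log2 scale (limma adjusted p = 2.35e-06). Those that did not pass were Smoc1 (-0.53), Prom2 (0.53), Lrig2 (-0.12), Lrig3 (0.10), Rgma (-0.37) and Pcgf2 (-0.03).

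Around Bmi1, 4 of the 15 other PRC1 genes fell, 3 rose and 8 did not pass, with a median log2 fold change of -0.06, beside 21% lower and 22.7% higher over all tested rows. Pcgf5 (-0.52), Phc3 (-0.29) and Cbx7 (-0.24) fell, and Phc2 (0.55), Pcgf3 (0.27) and Rnf2, a catalytic subunit (0.31), rose. With only 4-OHT replicate 1 kept, 1 gene of the list was lower, Pcgf5. Of the 4 tested receptors that Lrig1 is known to restrain, Egfr averaged 3119 ± 17 in vehicle and 4536 ± 118 in 4-OHT libraries (SD, n = 3 each), a rise of 0.54 on the log2 scale (limma adjusted p = 8.04e-09), and Erbb2 (-0.05), Erbb3 (-0.02) and Met (-0.03) did not pass.

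**Figure D5:**
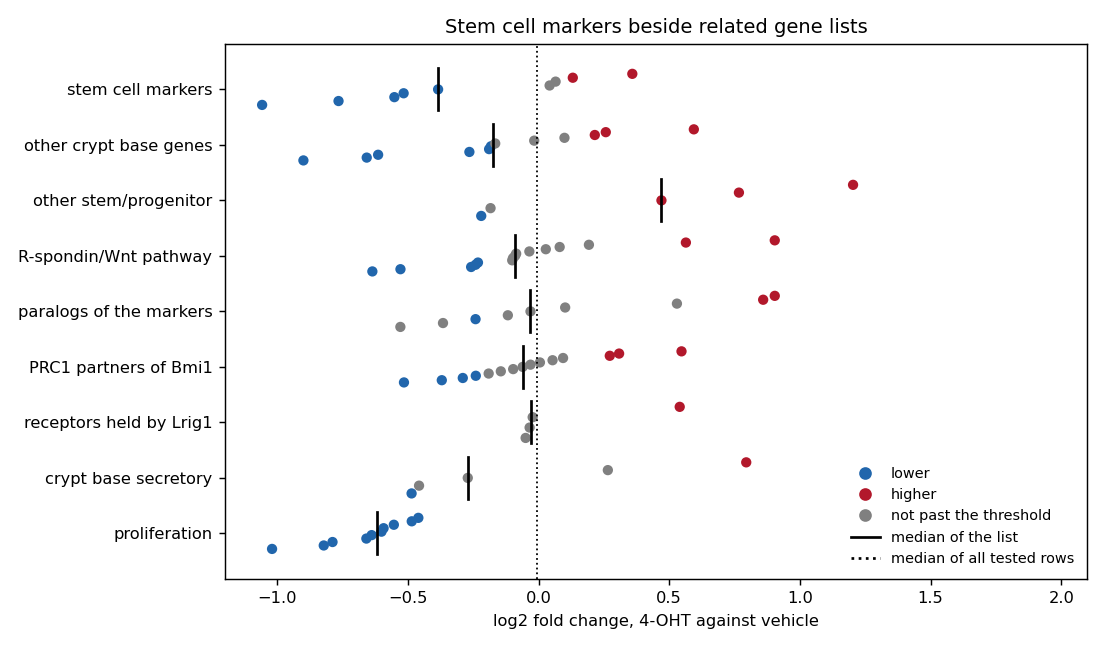
Log2 fold change in 4-OHT against vehicle organoids (horizontal axis) of each tested gene of the marker set and 8 related lists, with the median of each list as a black bar and that of all tested rows as a dotted line. The markers have a median of -0.38 and spread from -1.06 to 0.36, and all 10 proliferation genes lie below 0 with a median of -0.62.

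Genes of dividing cells fell together with Lgr5. All 10 listed (Mki67, Top2a, Pcna, Mcm2, Mcm5, Mcm6, Ccnb1, Cdk1, Birc5 and Bub1) fell, with a median log2 fold change of -0.62, and their sum went from 2058 to 2194 RPM in vehicle libraries to 1107 to 1274 in 4-OHT libraries. This count and those below stand beside 21% lower and 22.7% higher over all tested rows. Among genes of differentiated cells, 3 of 5 colonocyte genes rose and 0 fell. Krt20 (0.24, limma adjusted p = 0.079) and Slc26a3 (0.27, limma adjusted p = 0.12) did not pass. One of the rises was that of Car1, a carbonic anhydrase (0.92 on the log2 scale). The rises of the other 2, Car4 and Aqp8, did not pass when 4-OHT replicate 3 was left out. In 4-OHT replicate 1 they were 1.29 and 1.74 above the vehicle mean on the log2 scale, but both rest on few reads. Car4 had 1, 2 and 2 reads in vehicle and 5, 11 and 44 in 4-OHT replicates 1, 2 and 3. Aqp8 had 14, 46 and 6 reads and then 50, 18 and 47 in the same order, and its groups overlapped. Of 6 goblet cell genes (Muc2, Tff3, Spdef, Fcgbp, Clca1 and Agr2) 4 rose, Fcgbp fell and Muc2 did not pass. Their sums overlapped, at 370 to 459 RPM in vehicle and 386 to 433 in 4-OHT libraries. Clca1, among the rises, had 301, 295 and 557 reads in 4-OHT replicates 1, 2 and 3. Of 4 tuft cell genes (Dclk1, Trpm5, Pou2f3 and Avil) 2 were tested and 1, Avil, rose. Among genes of secretory cells at the crypt base (Reg4, Kit, Cd24a, Dll1 and Dll4), Cd24a rose by 0.79 on the log2 scale, Dll4, a Notch ligand, fell by 0.49 (-0.28 in 4-OHT replicate 1, not past the threshold alone), and Reg4, the marker of deep crypt secretory cells, did not pass (0.26, limma adjusted p = 0.16). The part of the change in dividing and differentiated cells in the values of the stem cell markers was not tested.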

How the data were processed

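RNA of 6 mouse colonic organoid libraries was measured, 3 per group by the sample titles. The deposited values are a signal per gene: the authors' read count of each gene, scaled by a size factor for each library. STAR, DESeq2 and GRCm39 are named in the submitters' processing notes, while versions, annotation, library kit and strand are not given in the sources used here. All values (100%) were whole multiples of 1 step per library, within 0.1 reads, so reads were recovered (15804709 to 26957612 per library). A total of 3 reads served as the floor, for counting error only.

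The log2 of the value plus 1 was fitted with limma-trend (limma 3.58.1, R 4.3.3) over 13210 rows with a mean of at least 10, with Benjamini-Hochberg adjustment at 0.05. In 16 alternatives, 1 choice was changed at a time: a pseudocount of 0.1 or 10, no filter, a mean of at least 50, TMM factors, quantile normalization, a replicate block, edgeR 4.0.16, DESeq2 1.42.0, each library left out and 4-OHT replicate 1 alone. In simulated counts with 200 of 13210 genes changed by 1 on the log2 scale, limma recovered 168 and made 13 false calls. That simulation had 1 fixed dispersion and far fewer changed genes than the 43.6% of rows called here. Its recovery therefore does not carry over to these data. Libraries of a group differed by 3.49 to 6.44 times counting variance, so none is a copy.

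The markers and gene lists were chosen with earlier results of these data known. All markers are named. From other lists, the 3 genes with the lowest adjusted p-value in each direction are named where a list concerns the crypt base, Wnt, PRC1, Lrig1 or secretory cells, and every tested paralog. RPKM used merged exon lengths of GENCODE vM21. A further marker of colonic epithelium was left out of that list and is not reported here.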

Additional observations from a re-analysis of the deposited data

How the results depend on the processing

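The number of genes changed was 5765, with 5637 with the replicate block, 5780 with edgeR and 5218 with DESeq2, between 4939 and 5630 with each library left out, and 3569 with 4-OHT replicate 1 alone against vehicle, where fewer samples were fitted and the lone library is assumed to vary like the vehicle libraries. In all 16 alternatives 5 markers were lower, and Lgr5 (-1.11 to -0.96), Ascl2 (-0.62 to -0.50), Smoc2 (-0.94 to -0.42), Lrig1 (-0.57 to -0.42), Rgmb (-0.52 to -0.30) and Sox9 (0.30 to 0.37) kept their direction and call in each. The markers called higher were 1 instead of 2 with quantile normalization and with 4-OHT replicate 1 alone, and between 1 and 2 with each library left out. Prom1 lost its call in these fits, at 0.039 with quantile normalization and 0.099 with 4-OHT replicate 1 alone, and was between 0.10 and 0.16 with each library left out. The direction reversed for Tnfrsf19 (-0.16 to 0.19 with each library left out, negative without vehicle replicate 3 or 4-OHT replicate 1) and Bmi1 (-0.0034 to 0.12, negative without vehicle replicate 1, and -0.020 with 4-OHT replicate 1 alone), neither of which passed the threshold anywhere. The cause was not tested. Olfm4 was tested with no filter only. Of 448 counts for the other lists, 406 stayed within 1.5 times the reported count and 42 did not. Deviations of same-numbered libraries correlated at -0.020 to 0.030, so the numbers show no pairing, and the replicate block changed no call among the markers. Depth limits Olfm4 and Tnfrsf19 most, with at most 11 and 130 reads in a library.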
